A study of Mus musculus with 24 samples.

Results

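The genes described here are 7 homeobox genes of the paired-like class that are known for roles in limb, face and organ development: Pitx1, Pitx3, Prrx1, Prrx2, Alx1, Alx4 and Shox2. They were chosen by name, with earlier results of these data known, as 7 of the 19409 gene symbols in a table of 20633 transcripts. Where a symbol had several transcripts, the one with the largest summed normalised read count over all libraries was taken. All 7 were in the table, and all 7 passed the filter of at least 10 reads in at least 3 libraries. Pitx1, Prrx1, Alx1 and Alx4 passed only through their treated libraries, since at most 2 of 6 untreated libraries held that many reads of them, so their higher level after treatment is partly what brought them into the test.

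The measurements were spike-in calibrated total RNA-seq (cRNA-seq) of mouse embryonic stem cells (ESCs) of the E14 strain, grown on gelatin in serum with leukemia inhibitory factor, with Drosophila SG4 cells mixed in as a reference. The PRC1CKO line, which is clone B9 and carries Ring1a-/- with Ring1bfl/fl and with Rosa26::ERT2-Cre, lacks RING1A throughout and loses RING1B when 4-hydroxytamoxifen (OHT) activates the Cre recombinase expressed from the Rosa26 locus. The PRC1CPM line (clone 41) carries RING1A with the I50A and D53K substitutions throughout, and OHT switches both Ring1b alleles from the wild-type form to the I53A and D56K form, also through ERT2-Cre at Rosa26. Each line was profiled untreated and after 72 h in 800 nM OHT, with 3 biological replicates in each of the 4 conditions. Untreated cells of both lines therefore already lack normal RING1A, each line is a single clone, and differences between the lines cannot be told apart from differences between the clones.

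Paired-like homeodomain proteins bind DNA through a homeodomain related to that of Drosophila paired and act in patterning and cell fate in the embryo. Polycomb repressive complex 1 (PRC1) is a chromatin complex whose RING1A or RING1B subunit ubiquitylates histone H2A, and it keeps many developmental regulators silent in ESCs. Genes of the homeobox families are textbook targets of the Polycomb system, and the comparisons ask how their transcripts differ when PRC1 is removed or when only its catalytic activity is removed.

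The value given for each library is the deposited normalised read count, the reads over the whole gene body divided by one spike-in size factor. A library held 14668159 to 27016156 reads on genes, and one read was worth 0.770 to 1.49 normalised counts. Of transcripts with 2 to 9 reads, 83.4% to 88.7% had an even number in each library, a pattern of both mates of a read pair being counted, so the number of independent fragments is smaller than the number of reads. Changes are on the log2(normalised read count + 1) scale, which understates the change of a gene with few reads, and are followed by the standard error (SE) and the Benjamini-Hochberg adjusted p of a limma fit over 16940 transcripts. A gene was called at an adjusted p under 0.05 with a fold change above 1.5. These p-values set a change against the spread between replicates, pooled over the 4 conditions and drawn towards a trend over all transcripts. Each gene therefore has the same SE in both lines. In bulk RNA, more cells with a transcript and more transcript per cell cannot be told apart.

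Reads were summed over whole gene bodies, so the altered exons cannot be told apart from the rest of the targeted genes and these counts do not check the labels. Ring1, which encodes RING1A, had 313, 204 and 166 normalised counts in untreated and 281, 251 and 229 in OHT-treated PRC1CKO cells, and 179, 182 and 125 in untreated and 161, 111 and 148 in OHT-treated PRC1CPM cells. Rnf2, which encodes RING1B, had 1756, 1436 and 1385 in untreated and 1489, 1565 and 1585 in OHT-treated PRC1CKO cells, and 1850, 1659 and 1578 in untreated and 1724, 1295 and 1513 in OHT-treated PRC1CPM cells. Neither gene was called after OHT in either line, and treated and untreated libraries of a line overlapped for both. Ring1 was not lower in the line labelled Ring1a-/-, whose OHT-treated libraries were all above every PRC1CPM library.

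The promoters shown are those of the 4 of the 7 genes that were found in the promoter table, since CpG-rich promoters are the usual sites of Polycomb binding. Each is the stretch of 250 bases before the start site in RefSeq (GRCm38.p6), written 5′ to 3′ on the gene's strand, with CG dinucleotides in capitals. The Prrx2 stretch is chr2:30845117-30845366 on the plus strand, the Pitx3 stretch is chr19:46148326-46148575, the Shox2 stretch is chr3:66981772-66982021 and the Prrx1 stretch is chr1:163313651-163313900, the last 3 on the minus strand.
Prrx2: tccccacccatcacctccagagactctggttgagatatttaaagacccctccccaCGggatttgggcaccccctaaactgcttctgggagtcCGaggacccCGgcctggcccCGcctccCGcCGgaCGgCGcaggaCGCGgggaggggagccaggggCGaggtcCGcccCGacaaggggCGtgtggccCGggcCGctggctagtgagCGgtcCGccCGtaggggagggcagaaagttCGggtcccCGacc
Pitx3: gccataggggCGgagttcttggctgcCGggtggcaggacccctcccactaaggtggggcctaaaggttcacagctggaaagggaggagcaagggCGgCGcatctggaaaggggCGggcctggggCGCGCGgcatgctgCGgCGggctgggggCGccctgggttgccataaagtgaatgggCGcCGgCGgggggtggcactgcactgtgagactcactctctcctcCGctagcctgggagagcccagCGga
Shox2: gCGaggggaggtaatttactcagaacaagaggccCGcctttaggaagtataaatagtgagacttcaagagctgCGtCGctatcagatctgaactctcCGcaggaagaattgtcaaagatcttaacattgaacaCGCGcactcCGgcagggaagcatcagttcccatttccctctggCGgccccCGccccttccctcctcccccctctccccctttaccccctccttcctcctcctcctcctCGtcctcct
Prrx1: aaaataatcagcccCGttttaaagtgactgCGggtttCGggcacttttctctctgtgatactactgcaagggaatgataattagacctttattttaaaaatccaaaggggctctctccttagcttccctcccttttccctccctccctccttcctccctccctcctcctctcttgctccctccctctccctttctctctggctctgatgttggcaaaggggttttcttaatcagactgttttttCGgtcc
Over the window of 300 bases that reaches 50 bases past the start site, CG occurred 28 times in Prrx2, 20 times in Pitx3, 11 times in Shox2 and 6 times in Prrx1, against a median of 7 over the 32851 promoters in the same table. The share of all these promoters with at least as many was 14.2% for Prrx2, 26.5% for Pitx3, 41.4% for Shox2 and 56.4% for Prrx1. CG reads the same on both strands and was counted once per position. The RefSeq start site of Shox2 shown here lies 2960 bases upstream of the start of the transcript that was counted. Promoters of Pitx1, Alx1 and Alx4 are not shown.

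After OHT treatment, 6 of the 7 genes rose in PRC1CKO cells and 5 of the 7 rose in PRC1CPM cells, and none fell by the call rule. Pitx1, Prrx1, Alx1, Alx4 and Shox2 had at most 20 reads in any untreated library and rose in both lines. By the call rule Pitx3 rose in PRC1CKO cells only. Prrx2 had at least 65 reads in every untreated library and was called in neither line. Per kb of gene body, however, the Shox2 and Prrx2 values overlapped in untreated PRC1CPM cells. Among all 16940 transcripts tested, 16.5% rose and 3.09% fell in PRC1CKO cells, and 13.1% rose and 1.4% fell in PRC1CPM cells. In a limma fit with the replicate number as a block, 3435 transcripts rose and 823 fell in PRC1CKO cells, where Prrx2 was then called lower. The same fit gave 3033 rising and 461 falling transcripts in PRC1CPM cells. Pitx3 was then called higher there too, which made 6 of the 7 genes. The median log2 change of the 7 genes was 4.63 in PRC1CKO cells and 2.69 in PRC1CPM cells, against 0.12 and 0.10 for all transcripts tested. Pitx1, Prrx1, Alx1 and Alx4 passed the filter only through treated libraries, and the 7 were chosen with earlier results known. These medians therefore describe the 7 genes and are no test of them against other genes. In PRC1CKO cells every OHT-treated library was above every untreated library for 6 of the 7 genes, as it was for 22.1% of all transcripts tested, and in PRC1CPM cells for 6 of 7 against 18.7%. With TMM scaling of the mouse reads in place of the spike-in, the totals called moved from 2787 higher and 524 lower to 2845 and 1133 in PRC1CKO cells, and from 2226 and 237 to 2396 and 595 in PRC1CPM cells, while the same 6 and 5 of the 7 genes were called higher. Spike-in scaling without the genomic DNA correction moved the median change of all transcripts in PRC1CPM cells from 0.10 to 0.39 and the totals called to 3428 higher and 68 lower there and to 2132 and 666 in PRC1CKO cells, and left the 7 genes' calls as they were except that Pitx3 was then also called higher in that line.

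**Figure D1:**
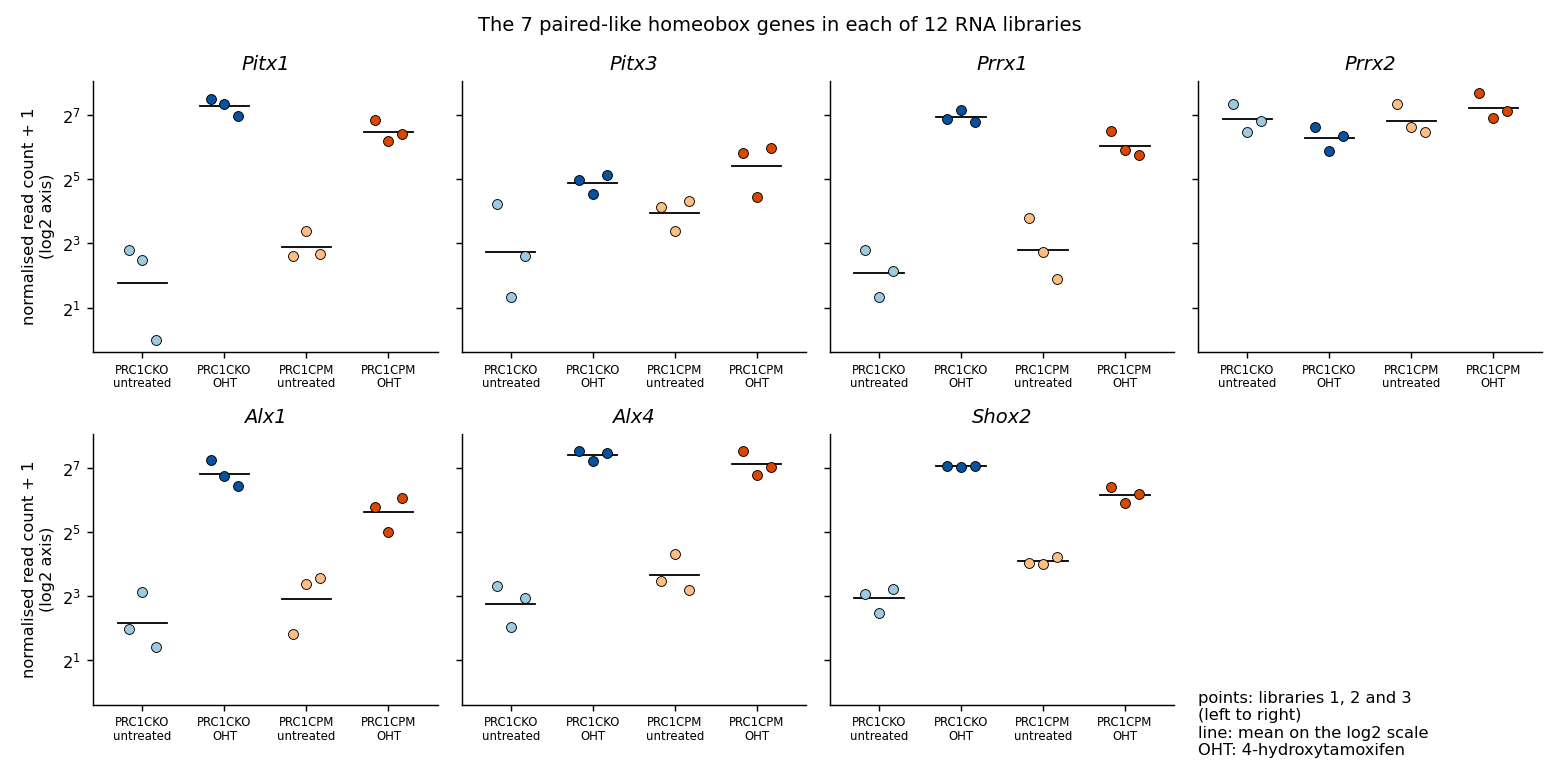
Normalised read count plus 1 on a log2 axis for each of the 7 genes in the 12 libraries, with points for replicates 1, 2 and 3 from left to right and a line at the mean on the log2 scale. All but Prrx2 have every OHT-treated library above every untreated library of the same line, while Prrx2 lies between 57.4 and 204 normalised counts in every library.

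Pitx1, a regulator of hindlimb identity and pituitary development, had the largest fitted change of the 7 genes in both lines, although without untreated PRC1CKO replicate 3, its library at 0 reads, its change there was 4.63 and that of Prrx1 was larger (4.86), and without untreated PRC1CPM replicate 1 Prrx1 (3.73) was above Pitx1 (3.44) in that line. Its transcript NM_011097 (mm10 chr13:55825054-55831425, minus strand, 3 exons) had 5.96, 4.62 and 0 normalised counts in the untreated PRC1CKO libraries and 182, 163 and 124 after OHT. In PRC1CPM cells it had 5.11, 9.42 and 5.42 untreated and 113, 72.7 and 83.2 after OHT. The untreated libraries held at most 10 reads of Pitx1, and every OHT-treated library was far above them, without overlap. The ratio of the means was 44.3 in PRC1CKO and 13.5 in PRC1CPM cells. The fitted log2 change was 5.52 (SE 0.523, adjusted p = 3.61e-12) in PRC1CKO and 3.58 (SE 0.523, adjusted p = 6.32e-07) in PRC1CPM cells.

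Pitx3 is needed for the eye lens and for midbrain dopaminergic neurons, and it changed least among the genes that were called. Its transcript NM_008852 (chr19:46135686-46148325, minus strand, 4 exons) had 17.9, 1.54 and 5.07 normalised counts in untreated and 30.7, 22.2 and 34.0 in OHT-treated PRC1CKO cells. The PRC1CPM libraries had 16.6, 9.42 and 19.0 untreated and 56.0, 20.9 and 62.4 after OHT. The groups did not overlap in either line, but the lowest OHT-treated PRC1CPM library, replicate 2, was only just above the highest untreated one. The log2 change was 2.16 (SE 0.561, adjusted p = 0.00289) in PRC1CKO cells, and 1.47 with an adjusted p of 0.0529 without untreated PRC1CKO replicate 2. The PRC1CPM change was 1.48 (SE 0.561, adjusted p = 0.0701), which did not pass, although edgeR and DESeq2 on the recovered reads gave adjusted p-values of 0.0269 and 0.0382, and the limma fit with the replicate number as a block gave 0.00497. The row overlaps 9 bases of Elovl3 on the opposite strand, a share of 0.0712% of its length.

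Prrx1 and Prrx2 are close paralogues of limb and craniofacial mesenchyme, and they behaved differently here. Prrx1, transcript NM_011127 (chr1:163245119-163313650, minus strand, 4 exons), had 5.96, 1.54 and 3.38 normalised counts in untreated and 116, 141 and 108 in OHT-treated PRC1CKO cells. For PRC1CPM the values were 12.8, 5.65 and 2.71 untreated and 88.8, 58.8 and 52.6 after OHT. Every OHT-treated library was thus above every untreated one, from a starting level of 2 to 10 reads. The log2 change was 4.84 (SE 0.506, adjusted p = 5.49e-11) in PRC1CKO and 3.24 (SE 0.506, adjusted p = 2.47e-06) in PRC1CPM cells. Exons make up 7.14% of this row, and the annotated non-coding RNAs LOC108167740 and Gm20471 overlap 9.99% and 22.6% of it, so reads from them could have been counted with Prrx1.

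Prrx2, transcript NM_009116 (chr2:30845367-30881247, plus strand, 4 exons), had 161, 88.5 and 112 normalised counts in untreated and 98.5, 57.4 and 81.1 in OHT-treated PRC1CKO cells. In PRC1CPM cells it had 161, 98.0 and 88.1 untreated and 204, 118 and 139 after OHT. Its treated and untreated libraries overlapped in both lines, and every untreated library held at least 65 reads. The log2 change was -0.59 (SE 0.339, adjusted p = 0.265, 95% interval -1.27 to 0.09) in PRC1CKO and 0.42 (SE 0.339, adjusted p = 0.571, 95% interval -0.26 to 1.10) in PRC1CPM cells. With TMM scaling the PRC1CKO change was -0.71 with an adjusted p of 0.0147 and was called lower, as it was with the replicate number as a block (adjusted p = 0.0325).

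Alx1 and Alx4 encode factors of craniofacial mesenchyme, and Alx4 also acts in the front of the limb bud. Alx1, transcript NM_172553 (chr10:103007847-103028777, minus strand, 4 exons), had 2.98, 7.70 and 1.69 normalised counts in untreated and 151, 106 and 86.4 in OHT-treated PRC1CKO cells. PRC1CPM cells gave 2.56, 9.42 and 10.8 untreated and 54.1, 30.9 and 65.7 after OHT. OHT-treated libraries of both lines were above all untreated ones, and the PRC1CKO libraries reached the higher level. The log2 change was 4.63 (SE 0.525, adjusted p = 4.98e-10) in PRC1CKO and 2.69 (SE 0.525, adjusted p = 0.000113) in PRC1CPM cells.

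Alx4, transcript NM_007442 (chr2:93642434-93681339, plus strand, 4 exons), had 8.94, 3.08 and 6.77 normalised counts in untreated and 183, 149 and 174 in OHT-treated PRC1CKO cells. The PRC1CPM values were 10.2, 18.8 and 8.13 untreated and 185, 109 and 129 after OHT. Treated and untreated libraries did not overlap, while the OHT-treated libraries of the 2 lines did. The log2 change was 4.64 (SE 0.431, adjusted p = 2.02e-12) in PRC1CKO and 3.45 (SE 0.431, adjusted p = 1.76e-08) in PRC1CPM cells.

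Shox2 acts in the proximal limb, the palate and the sinoatrial node of the heart. Its transcript NM_001302358 (chr3:66971723-66978811, minus strand, 5 exons) had 7.45, 4.62 and 8.46 normalised counts in untreated and 134, 129 and 134 in OHT-treated PRC1CKO cells. In PRC1CPM cells it had 15.3, 15.1 and 17.6 untreated and 83.0, 59.5 and 71.2 after OHT. Shox2 was the one gene of the 7 whose libraries fell into 4 separate ranges, one for each condition. The log2 change was 4.12 (SE 0.421, adjusted p = 3.00e-11) in PRC1CKO and 2.08 (SE 0.421, adjusted p = 0.000197) in PRC1CPM cells. A second Shox2 transcript, NM_001302359, overlaps the first and shares reads with it, and its log2 changes were 3.93 and 2.13.

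**Figure D2:**
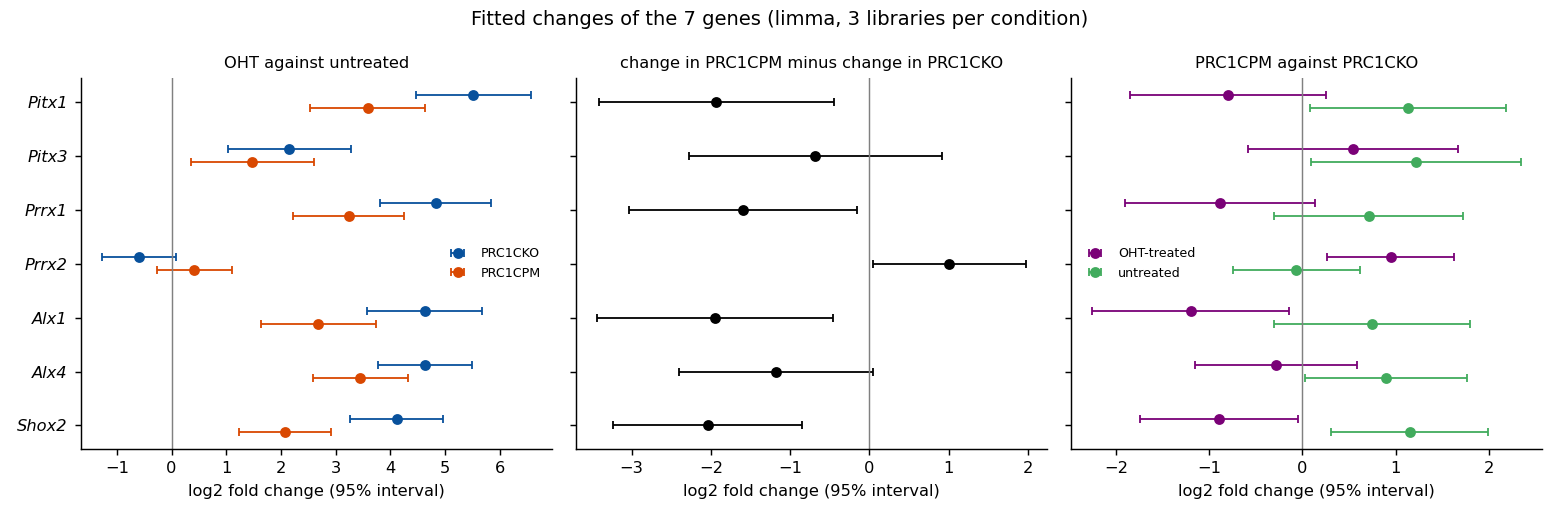
Log2 fold changes of the 7 genes with 95% intervals from the limma fit, for OHT against untreated in each line (left), for the change in PRC1CPM minus the change in PRC1CKO cells (middle) and for PRC1CPM against PRC1CKO cells within a treatment (right). The PRC1CPM change is the smaller for every gene but Prrx2, and the same genes have the higher fitted untreated level in PRC1CPM cells. No difference between the lines passed the adjusted threshold in this fit, which has no replicate block.

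The fitted change was smaller in PRC1CPM than in PRC1CKO cells for 6 of the 7 genes, but the interaction of line and treatment was called for none of them. The difference in log2 change was -2.04 for Shox2 (SE 0.596, adjusted p = 0.529), -1.94 for Alx1, -1.93 for Pitx1, -1.60 for Prrx1, -1.18 for Alx4, -0.68 for Pitx3 and 1.01 for Prrx2. The median of these was -1.60 against -0.02 for all transcripts. Of the 7, 4 were lower and 1 was higher at an unadjusted p under 0.05, against 369 lower and 128 higher of all 16940 transcripts, of which 4 (0.0236%) passed the adjusted threshold. edgeR and DESeq2 also called none of the 7, while limma with the replicate number as a block called Shox2 (adjusted p = 0.00618) and Pitx1 (adjusted p = 0.0428), among 324 transcripts. The 95% interval was -3.24 to -0.85 for Shox2 and -2.41 to 0.04 for Alx4. The Pitx1 difference ranged over -2.45 to -1.05 with single libraries left out, and the Shox2 difference over -2.19 to -1.82. Each interaction value is the PRC1CPM against PRC1CKO difference of OHT-treated cells minus that of untreated cells. These were -0.89 and 1.15 for Shox2, -1.20 and 0.75 for Alx1, -0.80 and 1.13 for Pitx1, and -0.88 and 0.71 for Prrx1. They were -0.29 and 0.90 for Alx4, 0.54 and 1.22 for Pitx3, and 0.95 and -0.06 for Prrx2. Except for Prrx2, the untreated levels rest on at most 20 reads per library.

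Compared directly, the OHT-treated lines differed by the call rule at 1.47% of all transcripts and at none of the 7 genes. Every OHT-treated PRC1CPM library was below every OHT-treated PRC1CKO library for Pitx1, Prrx1, Alx1 and Shox2, as it was for 4.35% of all transcripts tested. The PRC1CPM mean was 57.4% of the PRC1CKO mean for Pitx1, 54.9% for Prrx1, 44.0% for Alx1, 54.0% for Shox2 and 83.7% for Alx4, and it was 195% for Prrx2 and 160% for Pitx3. For Prrx2 the log2 difference between the OHT-treated lines was 0.95 (SE 0.339, adjusted p = 0.178). At an unadjusted p under 0.05 in the limma fit, 1499 transcripts were higher and 363 lower in OHT-treated PRC1CPM cells. With the replicate number as a block, 1363 transcripts were called between the OHT-treated lines, with Prrx2 higher (adjusted p = 0.00106) and Alx1 lower (adjusted p = 0.0415) in PRC1CPM cells. With TMM scaling Prrx2 and Shox2 were called between the OHT-treated lines, at 0.85 (adjusted p = 0.0209) and -0.99 (adjusted p = 0.0382). The totals called were 212 higher and 37 lower in PRC1CPM cells, 524 and 261 with TMM, and 441 and 21 without the genomic DNA correction.

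Between the untreated lines, 2.69% of all transcripts and none of the 7 genes were called. With the replicate number as a block, 1884 transcripts were called, and Shox2 (adjusted p = 0.0113), Pitx1 (adjusted p = 0.0331), Pitx3 (adjusted p = 0.0386) and Alx4 (adjusted p = 0.0474) were among those higher in PRC1CPM cells. The fitted level was higher in untreated PRC1CPM cells for 6 of the 7, with log2 differences of 1.22 for Pitx3, 1.15 for Shox2, 1.13 for Pitx1, 0.90 for Alx4, 0.75 for Alx1 and 0.71 for Prrx1. Shox2 alone had every untreated PRC1CPM library above every untreated PRC1CKO library, against 9.23% of all transcripts, and its adjusted p was 0.148, or 0.0257 with TMM. Without untreated PRC1CKO replicate 1, Pitx1 (1.65, adjusted p = 0.0396) and Pitx3 (1.97, adjusted p = 0.0191) were called higher in untreated PRC1CPM cells, but the difference was 0.25 for Pitx1 without untreated PRC1CKO replicate 3 and 0.53 for Pitx3 without untreated PRC1CKO replicate 2. With single libraries left out, the difference ranged over 0.53 to 1.17 for Alx4, 0.37 to 1.29 for Alx1 and 0.22 to 1.17 for Prrx1. The totals were 374 higher and 81 lower in PRC1CPM cells, 745 and 305 with TMM, and 130 and 148 without the genomic DNA correction. Both line comparisons and the interaction use the same libraries as the OHT comparisons above and are not separate evidence.

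Levels of different genes are compared per kb of the counted gene body, introns included. In untreated PRC1CKO cells Prrx2 was highest, at 3.35 ± 1.03 (SD, n = 3) normalised counts per kb, followed by Shox2 at 0.965 ± 0.281, Pitx3 at 0.646 ± 0.680, Pitx1 at 0.553 ± 0.491, Alx1 at 0.197 ± 0.151, Alx4 at 0.161 ± 0.0761 and Prrx1 at 0.0529 ± 0.0324. Prrx2 alone stood apart there, since every other pair of neighbours in this order had overlapping libraries. After OHT in PRC1CKO cells Pitx1 came first at 24.5 ± 4.63 per kb and Shox2 second at 18.6 ± 0.405, without overlap between them. Alx1 (5.46 ± 1.59) and Alx4 (4.34 ± 0.450) overlapped, and so did Pitx3 (2.29 ± 0.482), Prrx2 (2.20 ± 0.576) and Prrx1 (1.77 ± 0.248), which lay below both Alx genes in every library.

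In untreated PRC1CPM cells the per-kb order was the same, with Prrx2 at 3.23 ± 1.10 and Shox2 at 2.26 ± 0.197, which overlapped, then Pitx3 at 1.19 ± 0.394 and Pitx1 at 1.04 ± 0.377, which also overlapped. Alx1 (0.364 ± 0.212) and Alx4 (0.319 ± 0.146) overlapped below them and Prrx1 was lowest at 0.103 ± 0.0756, separate from Alx4. After OHT in PRC1CPM cells Pitx1 (14.1 ± 3.28 per kb) and Shox2 (10.1 ± 1.66) overlapped at the top. Prrx2 (4.28 ± 1.24), Pitx3 (3.67 ± 1.77), Alx4 (3.63 ± 1.02) and Alx1 (2.40 ± 0.846) followed, each overlapping the next, and Prrx1 was again lowest at 0.974 ± 0.283. Even at its highest, the mean per-kb level of Pitx1 exceeded that of 61.9% of all rows in the table, and Prrx1 in the same cells exceeded 28.0%.

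Prrx2 made up 53.7%, 55.6% and 62.1% of the summed per-kb level of the 7 genes in the untreated PRC1CKO libraries and 4.15%, 2.76% and 4.23% in the OHT-treated ones. In PRC1CPM cells its share was 48.1%, 33.7% and 30.5% untreated and 11.8%, 11.0% and 9.90% after OHT. Pitx1 and Shox2 together took 71.6%, 75.4% and 71.7% of the sum in OHT-treated PRC1CKO cells and 61.1%, 66.3% and 59.0% in OHT-treated PRC1CPM cells. The summed level itself was 8.34, 4.43 and 5.01 per kb in untreated and 66.2, 58.0 and 53.4 in OHT-treated PRC1CKO cells, and 9.34, 8.10 and 8.06 in untreated and 48.2, 29.9 and 39.2 in OHT-treated PRC1CPM cells. Replicate 2 was the lowest of the OHT-treated PRC1CPM libraries for 6 of the 7 genes, the exception being Prrx1.

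**Figure D3:**
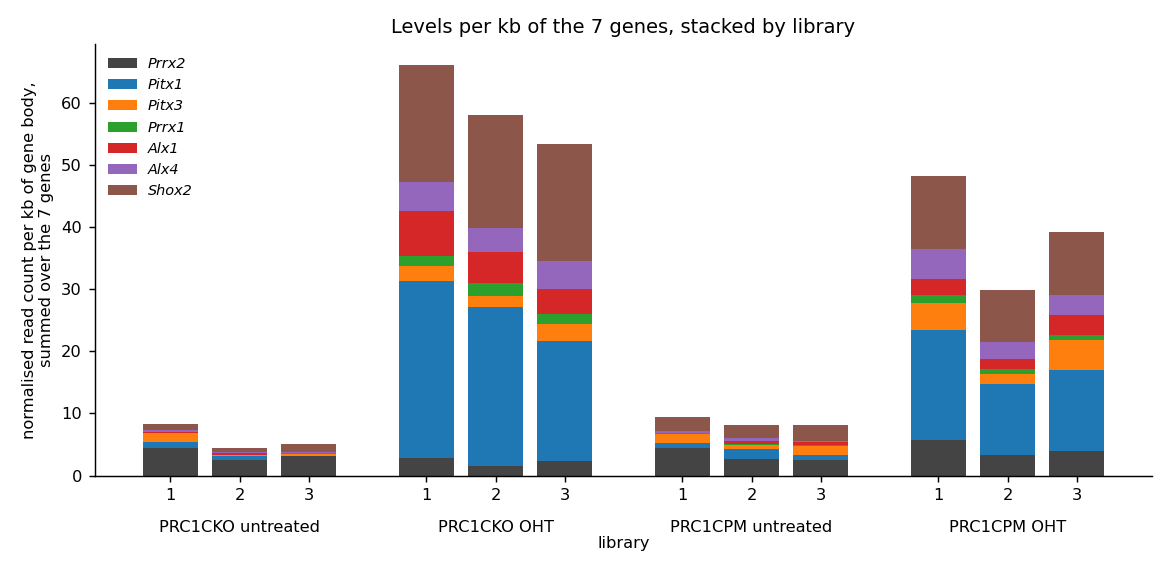
Normalised read count per kb of gene body of the 7 genes, stacked in each library, with replicates numbered on the horizontal axis. Prrx2 is the largest block in untreated PRC1CKO libraries, while Pitx1 and Shox2 take 59.0% or more of every OHT-treated bar.

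A list of other paired-like homeobox genes showed a mixed picture. Its counts and those of the lists after it stand against 16.5% rising and 3.09% falling of all transcripts in PRC1CKO cells. In PRC1CPM cells these shares were 13.1% and 1.4%. Of 22 such genes in the table, 15 passed the filter, and 9 rose and 1 fell in PRC1CKO cells while 8 rose and 1 fell in PRC1CPM cells, with median log2 changes of 1.67 and 1.61. Uncx, a regulator of the vertebral column, rose from 2.98, 0 and 1.69 to 81.4, 77.8 and 68.0 normalised counts in PRC1CKO cells (5.12, SE 0.628, adjusted p = 4.17e-09) and by 4.68 in PRC1CPM cells. Otx1, a forebrain and sense organ factor, rose by 5.02 and 2.80. Otx2, which acts in early ESC differentiation and head formation, was transcribed in untreated cells, with 477, 703 and 478 normalised counts in PRC1CKO, and fell by 1.01 and 1.20 on the log2 scale. Otx1 was also called higher in untreated PRC1CPM than untreated PRC1CKO cells, at 1.86.

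Most genes of the limb bud list rose, against 16.5% of all transcripts in PRC1CKO and 13.1% in PRC1CPM cells. Of 29 tested, 25 rose and 2 fell in PRC1CKO cells and 22 rose and 2 fell in PRC1CPM cells, with median log2 changes of 2.74 and 1.56. Tbx4, a hindlimb factor known as a target of Pitx1, had 29.8, 23.1 and 21.1 normalised counts in untreated and 320, 293 and 247 in OHT-treated PRC1CKO cells, a change of 3.49 (SE 0.332, adjusted p = 3.85e-12). In PRC1CPM cells it went from 56.3, 48.1 and 38.0 to 315, 238 and 200, a change of 2.37 (adjusted p = 2.55e-07). Hand2 and Hoxa13, which pattern the posterior and distal limb, were at 0 in all 3 untreated PRC1CKO libraries and were at least 9.77-fold and 9.57-fold higher after OHT against a floor of 3 reads in each library. Dlx6, a factor of the limb ridge and the lower jaw, rose by 4.73 and 3.53. Ptch1, the Hedgehog receptor, was the largest decrease of the list in PRC1CKO cells, from 6696, 6807 and 5517 to 1876, 1794 and 1958 normalised counts (-1.75, SE 0.203, adjusted p = 8.79e-10), and it fell by 1.23 in PRC1CPM cells. Its 10 genes shared with other lists include Tbx4, Hand2 and Dlx6, so the counts of the lists are not independent.

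The craniofacial and neural crest list had the largest median of the lists described here in PRC1CKO cells. Of 30 tested, 25 rose and none fell in PRC1CKO cells and 21 rose and none fell in PRC1CPM cells, with median log2 changes of 3.36 and 1.97. With the 2 genes at 0 in all untreated PRC1CKO libraries set at their lower bound, the first median was 3.21. Of all transcripts, 16.5% rose in PRC1CKO and 13.1% in PRC1CPM cells. Pax3, a neural crest and muscle precursor factor, had 8.94, 9.23 and 8.46 normalised counts in untreated and 661, 549 and 644 in OHT-treated PRC1CKO cells (5.97, SE 0.386, adjusted p = 9.21e-18), and it rose by 4.03 in PRC1CPM cells. Lhx8, which acts in the palate and teeth, rose by 5.88 and 4.19, and Barx1, a factor of the molar teeth and stomach, rose by 5.14 and 2.83. Pax3 was also called lower in OHT-treated PRC1CPM than in OHT-treated PRC1CKO cells (-1.57, adjusted p = 0.0179).

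In the cartilage and bone list, 12 of 17 genes tested rose in PRC1CKO cells and 10 in PRC1CPM cells. None fell, the medians were 1.45 and 1.17, and 16.5% and 13.1% of all transcripts rose. With single libraries left out, 10 to 12 rose in PRC1CKO cells and 5 to 10 in PRC1CPM cells. Sox9, the main regulator of cartilage formation, rose from 2.98, 4.62 and 8.46 to 103, 57.4 and 55.0 normalised counts in PRC1CKO cells (3.55, SE 0.479, adjusted p = 4.29e-08). In PRC1CPM cells it had 35.8, 22.6 and 24.4 untreated and 118, 29.4 and 70.1 after OHT, which did not pass (1.18, adjusted p = 0.0976) but was called with the replicate number as a block (adjusted p = 0.00809). Sox6, a partner of Sox9 in cartilage, rose by 2.69 and 1.52, and Runx2, the regulator of bone formation, rose by 2.56 and 1.41.

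Of 14 tested genes that are described as acting downstream of one of the 7, 8 rose in PRC1CKO and 7 in PRC1CPM cells. None fell, the medians were 1.33 and 1.44, and 16.5% and 13.1% of all transcripts rose. The number that rose ranged over 5 to 10 in each line with single libraries left out. With the replicate number as a block, 11 were called higher in PRC1CPM cells. Slc18a2, the vesicular monoamine transporter of dopaminergic neurons and a known target of Pitx3, had 41.7, 36.9 and 32.1 normalised counts in untreated and 221, 250 and 222 in OHT-treated PRC1CKO cells. It had 38.4, 49.0 and 40.7 untreated and 317, 240 and 250 after OHT in PRC1CPM cells, and its log2 change was 2.62 in each line (adjusted p = 4.86e-09 and 1.21e-08). Isl1, a cardiac and limb factor linked to Shox2 in the sinoatrial node, rose by 3.05 and 1.47.

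**Figure D4:**
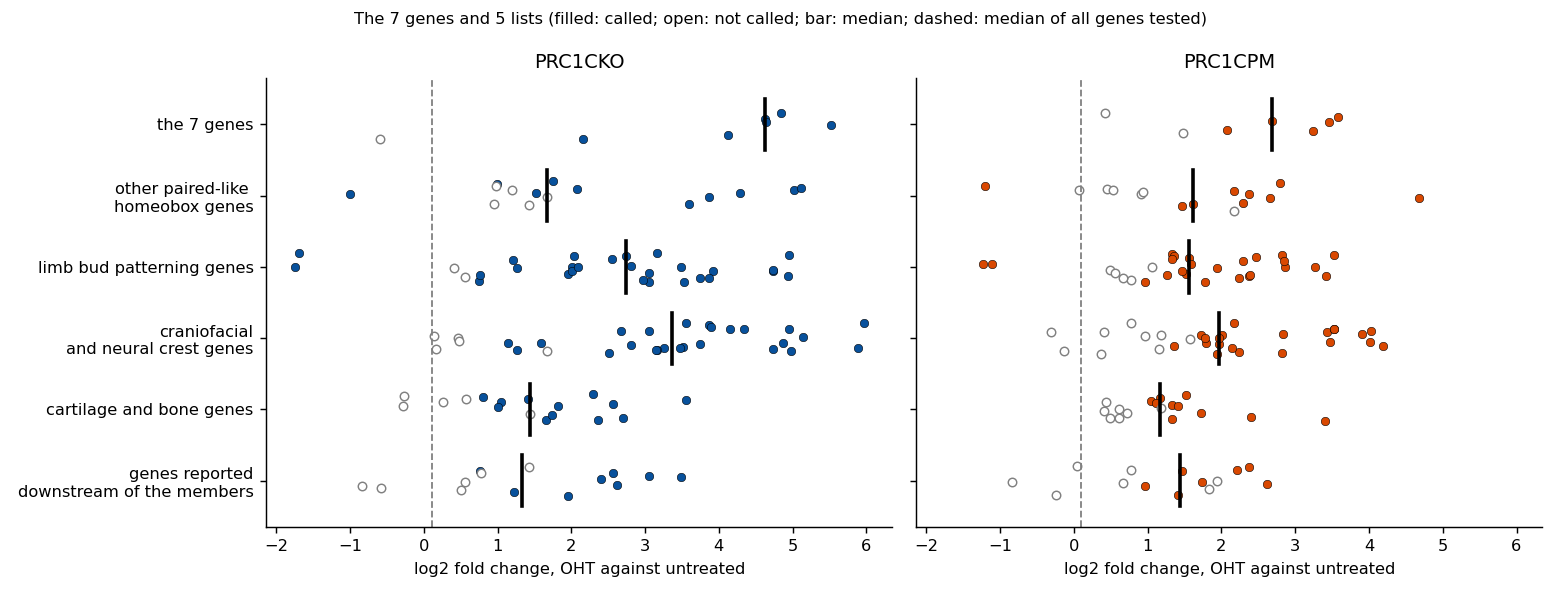
Log2 fold changes after OHT of the 7 genes and of the tested genes of 5 lists in PRC1CKO (left) and PRC1CPM cells (right), with filled points for called genes, open points for the others, bars at each list's median and a dashed line at the median of all transcripts tested. The median of the 7 genes, 4.63 and 2.69, lies to the right of the 5 list medians in both lines. This order is no test, since Pitx1, Prrx1, Alx1 and Alx4 passed the filter only through treated libraries. The 7 genes were also chosen with earlier results known.

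Some markers of other cell types were called as well, and their part in the results was not tested. Among all transcripts tested, 16.5% rose and 3.09% fell in PRC1CKO cells, and 13.1% rose and 1.4% fell in PRC1CPM cells. Of 9 tested ESC markers, none rose, 2 fell in PRC1CKO cells and none fell in PRC1CPM cells. Their summed level was 100200, 66240 and 74989 normalised counts in untreated and 59809, 58578 and 67842 in OHT-treated PRC1CKO cells, and 80628, 56189 and 70567 in untreated and 75841, 43172 and 74160 in OHT-treated PRC1CPM cells, with Tdgf1 the most abundant. Sox2, one of the core pluripotency factors, fell by 0.89 in PRC1CKO cells (adjusted p = 0.00051). The defining markers of the labelled cell type, among them Pou5f1, Nanog and Sox2, had at least 2497 normalised counts in every library.

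Of 10 mesenchyme or fibroblast markers, 8 were tested, 3 rose and 1 fell in PRC1CKO cells and 2 rose in PRC1CPM cells. Leaving out single libraries gave 2 to 4 rising markers in each line. Of all transcripts, 16.5% rose and 3.09% fell in PRC1CKO cells and 13.1% rose in PRC1CPM cells. Whether the shares of these markers differ from those was not tested. Pdgfra rose by 1.74 and 1.49, Twist2 by 2.31 and 2.16, and Thy1 by 0.65 in PRC1CKO cells (adjusted p = 0.0388), while Postn fell by 2.13 there (adjusted p = 0.0193). Lum reached at most 2.56 and Dcn at most 15.3 normalised counts in a library, and neither was tested. The summed level was 6979, 2596 and 3378 in untreated and 6187, 4873 and 5069 in OHT-treated PRC1CKO cells. It was 15716, 4179 and 5357 in untreated and 16881, 5551 and 7594 in OHT-treated PRC1CPM cells, with Col1a1 the most abundant gene. Replicate 1 of PRC1CPM thus stood apart from the others in both treatments, and without either of these libraries Pitx1, Prrx1, Alx1, Alx4 and Shox2 were still called higher in PRC1CPM cells, with Pitx3 (adjusted p = 0.0448) added without the untreated one.

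Of 6 tested early mesoderm markers, 5 rose in PRC1CKO and 4 in PRC1CPM cells, among them T, Kdr and Foxf1, with Kdr the most abundant. With single libraries left out, 3 to 5 of these markers rose in PRC1CKO and 3 to 4 in PRC1CPM cells. The shares of all transcripts that rose were 16.5% and 13.1%. Their summed level ranged over 212 to 508 untreated and 789 to 1086 after OHT in PRC1CKO cells, and over 268 to 504 and 549 to 1107 in PRC1CPM cells. Of 8 primitive endoderm markers, 5 rose in PRC1CKO and 7 in PRC1CPM cells, with Lama1 the most abundant and sums of 4707 to 9244 and 6909 to 9397, and of 4788 to 6310 and 4628 to 7750. Gata4 and Gata6 rose by 2.14 and 2.96 in PRC1CKO cells and by 1.63 and 2.26 in PRC1CPM cells. Of 7 tested neural progenitor markers, 5 rose in PRC1CKO and 3 in PRC1CPM cells, with Nes the most abundant and sums of 558 to 1364 and 1799 to 2065, and of 953 to 1254 and 1159 to 2328. Olig2 and Pax6 rose by 4.35 and 3.06 in PRC1CKO cells and by 3.69 and 1.28 in PRC1CPM cells. Untreated PRC1CKO replicate 1 had the highest sum of its group for all 5 marker lists, with 6979 normalised counts for mesenchyme or fibroblast, 508 for early mesoderm, 9244 for primitive endoderm and 1364 for neural progenitor markers. This library also had the largest scale of its group, at 1.49 normalised counts per read against 0.770 and 0.846. It was highest of its group for each tested neighbour described below as well, such as H2afy at 4892 against 3475 and 3672. Whether its marker sums reflect cell types or its scale was not tested. Without untreated PRC1CKO replicate 1 the same 6 of the 7 genes were called higher in PRC1CKO cells. Between the untreated lines 1569 transcripts were then called in place of 455.

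**Figure D5:**
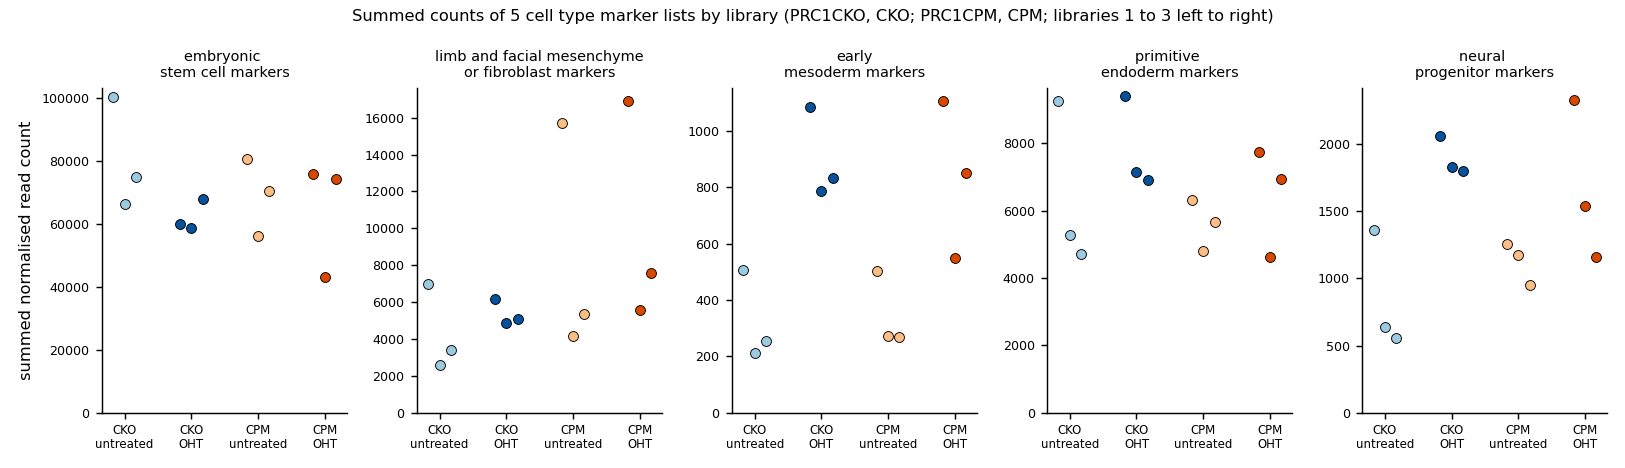
Summed normalised read count of 5 cell type marker lists in each library, on axes that start at 0, with replicates 1 to 3 from left to right. Replicate 1 of PRC1CPM reaches 15716 untreated and 16881 after OHT for the mesenchyme or fibroblast markers, above all other libraries.

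The neighbours described next are the nearest transcripts of another gene on either side that do not overlap one of the 7 genes. Of 14 such neighbours, 13 were tested (Mroh9, beside Prrx1, was not), and 2 rose in PRC1CKO cells and 1 in PRC1CPM cells, against 16.5% and 13.1% of all transcripts. Elovl3, which overlaps the end of Pitx3 and is not among the 14, rose by 2.24 (adjusted p = 0.0129) in PRC1CKO cells and had a change of 1.27 (adjusted p = 0.279) in PRC1CPM cells. Cd82, 180583 bases from Alx4, rose by 1.51 (adjusted p = 9.15e-05) and 1.01 (adjusted p = 0.0132). Rsrc1, 6861 bases from Shox2 on the opposite strand, rose by 0.73 (adjusted p = 0.00979) in PRC1CKO cells and had a change of 0.40 (adjusted p = 0.264) in PRC1CPM cells. Ptges, 8224 bases from Prrx2, had changes of 0.67 (adjusted p = 0.0873) and 0.69 (adjusted p = 0.0923), which were both called with the replicate number as a block (adjusted p = 0.000138 and 9.63e-05). The other 10 were not called in either line: Catsper3 and H2afy beside Pitx1, Nolc1 and Gbf1 beside Pitx3, Gorab beside Prrx1, Asb6 beside Prrx2, Rassf9 and Lrriq1 beside Alx1, Ext2 beside Alx4 and Veph1 beside Shox2.

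The genes whose profile over the 12 libraries was most like that of each of the 7 were found by the root mean square difference in log2(normalised read count + 1) after centring each gene. Prrx2, which was called in neither line, had the smallest distance, 0.15 to Sult5a1. Fam57b and Fhl1 followed, and none of these was called in either line. Prrx1 was closest to Six3 (0.32), Tbx15 and Tbx18, which are developmental transcription factor genes, and Shox2 to Kcns1 (0.33) and Fat3. Alx4 was closest to Nlgn1 (0.37), Irx1 and Ephb1, and Pitx3 to Fam84a (0.41), Atoh8 and Npw. Alx1 and Pitx1 had Hoxd4 as their nearest gene, at 0.49 and 0.51. Among the 7 themselves the closest pair was Alx4 and Prrx1 at 0.50, and the most distant was Pitx1 and Prrx2 at 2.54. These distances describe profiles over the same 12 libraries, which share conditions and depth. They also depend on how far a gene changes and on the noise of low counts. Their sizes are therefore not comparable between the 7 genes.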

How the data were processed

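Sample titles gave the line and treatment of the 12 RNA libraries. The 12 gDNA-seq samples enter only through the scale of the deposited values. The authors removed rDNA reads with Bowtie 2, aligned the rest to mm10 and dm6 with STAR and Bowtie 2, kept unique reads, removed duplicates with Sambamba and counted reads over 20633 transcript bodies; whether counting used strand is not given in the sources used here. The authors deposited normalised signal, read counts divided by DESeq2 size factors from Drosophila reads corrected by gDNA-seq. They also deposited their own log2 fold changes and adjusted p-values and a gene list, which were not used.

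Dividing each library's deposited signal by its smallest step gave whole reads, within 0.02 of a read, for 100% of values. Transcripts that reached 10 reads in 3 or more libraries (16940) were tested on log2(normalised read count + 1). The limma 3.58.1 model, in R 4.3.3, had a mean for each of the 4 conditions over all 12 libraries and a trended prior variance, and p-values were adjusted by Benjamini-Hochberg over these transcripts. Genes were called where the adjusted p was below 0.05 and the change exceeded 1.5-fold, or, for the interaction, by the adjusted p alone. Alternatives were edgeR 4.0.16 and DESeq2 1.42.0 on the recovered reads, TMM, spike-in scaling without the gDNA-seq correction (undone with the study's own totals of aligned reads), no filter, 0.1 as pseudocount, a block for the replicate number, a threshold of 2-fold, separate fits of the lines, and leaving out libraries one at a time. The fit was tested on simulated data. The labels share replicate numbers without saying what they mark. Deviations from the group means correlated over 0.1 in all 3 same-numbered pairs between the untreated lines (lowest 0.186), between the OHT-treated lines (lowest 0.140) and within PRC1CPM (lowest 0.246), so values with a replicate block stand beside these comparisons where a call changed; within PRC1CKO the lowest was 0.0988.

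The 7 genes, the gene lists and the tests were chosen with earlier results of these data known. Genes named from a list are the 3 with the largest called increase and the 1 with the largest called decrease in PRC1CKO cells and up to 3 called in the interaction, with Tbx4, the 3 nearest profiles and the nearest neighbour on each side without overlap. The most abundant markers, Ring1, Rnf2, Pou5f1, Nanog, Lum and Dcn are given as checks, and any other gene outside the rule was chosen after its values were seen. A few genes that this rule names are not reported here. Promoter sequences were matched by symbol in a RefSeq table (GRCm38.p6) for 4 of the 7 genes.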

Additional observations from a re-analysis of the deposited data

How the results depend on the processing

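Pitx1, Prrx1, Alx1, Alx4 and Shox2 were called higher in both lines under all 22 alternatives run, with log2 changes of 3.90 to 6.77 in PRC1CKO and 1.96 to 3.97 in PRC1CPM cells. Pitx3 was called in PRC1CKO cells in 21 of 22 and in PRC1CPM cells in 10 of 22. Prrx2 was called lower in PRC1CKO cells with TMM and with the replicate block. With each library left out in turn, 5 to 6 of the 7 genes were called in either line, 0 in the interaction, 0 between the OHT-treated and 0 to 2 between the untreated lines, while all transcripts called ranged over 2418 to 4054, 1708 to 2854, 1 to 28, 116 to 477 and 244 to 1569. The highest values for the interaction (28), the OHT-treated lines (477) and the untreated lines (1569) all came without untreated PRC1CKO replicate 1.

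Between-line totals depended most on the setting. The interaction was called at 15 transcripts by DESeq2, 14 with TMM, 0 without the filter (against 128 higher and 369 lower at an unadjusted p under 0.05 with it, and 4 by edgeR), 1 with a pseudocount of 0.1 and 1 without the 4 libraries numbered 2, which were left out together after seeing that they differed most from the others in both untreated groups. The OHT-treated lines differed at 429 transcripts by DESeq2, 785 with TMM (2 of the 7 genes), 462 without the gDNA-seq correction and 157 without the filter. The untreated lines differed at 1050 with TMM (1 of the 7), 278 without the gDNA-seq correction and 237 without the libraries numbered 2. Without the gDNA-seq correction the median change of all transcripts was 0.43 in the interaction and -0.16 between the untreated lines. The cause of these shifts was not tested.

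Same-numbered libraries deviated together in 17 of 18 pairs at a correlation over 0.1 (mean 0.205, lowest 0.0988, against a mean of -0.102 for other pairs) and every same-numbered pair exceeded every other pair. The one pair under 0.1 was of treated and untreated PRC1CKO cells, and it too was above every differently numbered pair (highest 0.0275). The main fit has no block in any comparison, so its calls leave this pairing out. With the number as a block, the interaction was called at 324 transcripts and 2 of the 7 genes (Shox2, adjusted p = 0.00618, and Pitx1, adjusted p = 0.0428), the OHT-treated lines differed at 1363 and 2 of the 7 (Prrx2 and Alx1), and the untreated lines at 1884 and 4 of the 7 (Pitx1, Pitx3, Alx4 and Shox2).

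Directions turned for 2 of the 7 genes, in comparisons that were not called. The Pitx3 interaction ranged over -1.44 to 0.0120 with single libraries left out, the latter without untreated PRC1CKO replicate 2, and was 0.0415 without the libraries numbered 2. The Prrx2 difference between untreated lines ranged over -0.326 to 0.166, the latter without untreated PRC1CKO replicate 1, with 0.0299 and 0.106 without untreated PRC1CPM replicates 2 and 3. Of the neighbours that were not called, the following turned with single libraries left out, over the ranges given: Catsper3 (-0.0956 to 0.469), H2afy (-0.0838 to 0.166), Gbf1 (-0.180 to 0.106), Gorab (-0.203 to 0.242), Ext2 (-0.0742 to 0.267) and Veph1 (-0.00668 to 0.440) in PRC1CPM cells, and Nolc1 (-0.256 to 0.0279), Gorab (-0.150 to 0.0737) and Rassf9 (-0.200 to 1.13) in PRC1CKO cells. Without the gDNA-seq correction H2afy (-0.00679) and Gbf1 (-0.0219) turned in PRC1CKO cells and Nolc1 (0.114), Gbf1 (0.257) and Gorab (0.268) in PRC1CPM cells. With TMM H2afy (-0.0340) and Ext2 (-0.00671) turned in PRC1CPM cells, without the libraries numbered 2 Catsper3 (-0.0296) and Gorab (0.266), and by edgeR and DESeq2 Gorab (0.0140 and 0.0134).

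Of the other named genes, the call of Thy1 in PRC1CKO cells was lost in 11 of 22 alternatives, that of Rsrc1 there in 5, those of Jarid2 in 4 and 5, that of Isl1 in PRC1CPM cells in 5, those of T in 2 and 4, that of Cd82 in PRC1CPM cells in 3, those of Otx2 and Postn in PRC1CKO cells and of Hand2 in PRC1CPM cells in 2 each, and those of Sox2 in PRC1CKO and of Runx2, Pax6 and Foxf1 in PRC1CPM cells in 1 each. Sox9 in PRC1CPM cells was called in 6, and Ptges in 4 and 5. With another pseudocount or scale the nearest profile changed for Alx1 (Paqr9) and Pitx3 (Lhx3 or Atoh8), among the profiles reported here. The untreated level of the genes that rose rests on 0 to 20 reads per library.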

Other observations

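Genes of the Polycomb system themselves were called in both directions. Of 13 core PRC1 and PRC2 genes tested, 2 rose and 2 fell in PRC1CKO cells and 2 rose and 1 fell in PRC1CPM cells. Among all transcripts, 16.5% rose and 3.09% fell in PRC1CKO cells, and 13.1% rose and 1.4% fell in PRC1CPM cells. Leaving out single libraries gave 1 to 2 rising core genes in each line. Whether their shares differ from those of all transcripts was not tested. Bmi1, which encodes a PCGF subunit of canonical PRC1, had 161, 98.5 and 154 normalised counts in untreated and 760, 703 and 728 in OHT-treated PRC1CKO cells, a log2 change of 2.43 (SE 0.277, adjusted p = 5.64e-10 by limma), and rose by 1.33 in PRC1CPM cells. Phc1, a Polyhomeotic subunit of the same complex, fell from 13454, 7361 and 9113 to 3478, 3166 and 3457 in PRC1CKO cells (-1.52, adjusted p = 1.15e-07) and by 1.17 in PRC1CPM cells. Jarid2, a cofactor of PRC2, rose by 0.72 and 0.66.

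The 4 transcripts called in the interaction of line and treatment were Ebf2 (-3.48, adjusted p = 0.000732), Mecom (-2.44, adjusted p = 0.0274) and 2 transcripts of Grb10 (-1.75 and -1.77, adjusted p = 0.0305 and 0.0274), each with the lower log2 change in PRC1CPM cells, and they were named after their values were seen. Ebf2 and Mecom encode transcription factors and Grb10 an adaptor of growth factor receptors.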
